A study of Mus musculus with 21 samples.

Results

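The genes described here are Csf1, Csf1r, Csf2ra, Csf2rb, Csf2rb2, Csf3r and Il3ra, a colony-stimulating factor and 6 receptor chains, picked by their symbols from the count table. These 7 genes are 7 of the 23420 gene symbols in the table, all 7 were found, and all 7 passed the filter on low counts in every comparison. Their levels were read in 21 RNA-seq libraries of sorted mouse inflammatory monocytes (IMs).

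Colony-stimulating factors are the cytokines that keep myeloid cells alive and drive their growth and maturation. CSF1 (M-CSF) binds CSF1R, a receptor tyrosine kinase of monocytes and macrophages. GM-CSF and IL-3 bind a private alpha chain, CSF2RA or IL3RA, which then pairs with a signaling beta chain, and both signal largely through JAK2 and STAT5. The mouse has 2 beta chains: CSF2RB, which serves GM-CSF, IL-3 and IL-5, and CSF2RB2, which serves IL-3 alone. CSF3R binds G-CSF and is best known from neutrophils, although monocytes carry it too.

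Tumor inflammatory monocytes (TIMs) were taken from 3 kinds of lesion of lung squamous cell carcinoma lines, with 5 libraries each. LN2E1 cells, 500000 per mouse, were placed in the lung of FVB mice and gave primary tumor TIMs and lymph node TIMs. LN4K1 cells, 300000 per mouse, were injected into the vein of DBA2 mice and gave lung metastasis TIMs (LN4K1 lung TIMs). IMs from the bone marrow (BM IMs) of naive FVB mice and of naive DBA2 mice made up the controls, with 3 libraries each. Adult animals were used, and the labels give no transgene or drug for any group. Each model is 1 cell line, and strain, line and route of injection change together between the models. TIMs and BM IMs differ in tissue of origin and in how the tissue was taken apart, so these cannot be told apart from the presence of a tumor. All cells were sorted as CD45+ CD11b+ Ly6G- Ly6C hi, and Siglec-F+ cells were left out of lung samples. The study's methods call the libraries of a group technical replicates, so p-values here measure only the spread between these samples, which may be technical. In sorted bulk cells, fewer cells that express a gene and less RNA of it per cell cannot be told apart.

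The libraries held 80772922 to 101043568 counts, and levels are given as CPM, read counts scaled to the library size with TMM factors over all libraries, in replicate order. In these units 3 counts correspond to 0.0297 to 0.0371 CPM. The sort markers Ptprc (CD45), Itgam (CD11b), Ly6c2 and Ccr2 were present in every library, the lowest values being 616 CPM for Ptprc, 258 CPM for Itgam, 974 CPM for Ly6c2 and 704 CPM for Ccr2. Markers of other cells differed between tissues. The 4 neutrophil precursor genes (Mpo, Elane, Prtn3, Ctsg) summed to 2107 to 2649 CPM in BM IMs and 15 to 233 CPM in TIMs, and the 5 eosinophil genes to 432 to 1145 CPM in BM IMs and 0 to 69.9 CPM in TIMs. The 4 genes of plasmacytoid dendritic cells summed to at most 2.58 CPM in BM IMs and 5.77 to 1120 CPM in TIMs. LN4K1 lung replicate 3 stood apart, with 115166 CPM of the lysozyme gene Lyz2 against 58648 to 75434 CPM in the other libraries of its group. Lymph node replicate 1 stood apart in the basophil gene Mcpt8, at 137 CPM against 3.41 to 10.2 CPM. The part of these differences in the results below was not tested, and each call on the 7 genes that turned when either library was left out is given with and without it.

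Csf2rb and Csf2rb2 rose in every TIM group against BM IMs of the same strain. Il3ra fell in every TIM group. Csf1, Csf1r and Csf3r rose in primary tumor and lymph node TIMs, and Csf2ra passed the test in no TIM group. A gene is said to rise or fall where edgeR's quasi-likelihood test gave a p under 0.05 after adjustment by Benjamini and Hochberg. In primary tumor TIMs 6 of the 7 genes were called, 5 higher and 1 lower, where 61.9% of all 14569 genes tested were called, 33.3% higher and 28.6% lower. In lymph node TIMs 6 were called, 5 higher and 1 lower, against 37.4% of 13273 genes, 20.2% higher and 17.2% lower. In LN4K1 lung TIMs 3 were called, 2 higher and 1 lower, against 24.9% of 13624 genes, 13.9% higher and 11% lower. The libraries of the compared groups had no overlap for 6, 6 and 3 of the 7 genes, and for 58.1%, 42.9% and 34.8% of all genes. The median log2 fold change of the 7 genes was 1.74, 1.65 and 0.62 in these comparisons, and that of all genes tested 0.08, -0.04 and 0.03. Because so many genes were called in the first comparison, the count of 6 says less there than the sizes do. The first 2 comparisons share the FVB BM IM libraries and are not independent. The study asked for more, a log2 fold change beyond 1 in either direction at an adjusted p under 0.0001. At these thresholds 3, 2 and 0 of the 7 genes passed, and 12.9%, 5.71% and 2.97% of all genes.

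**Figure D1:**
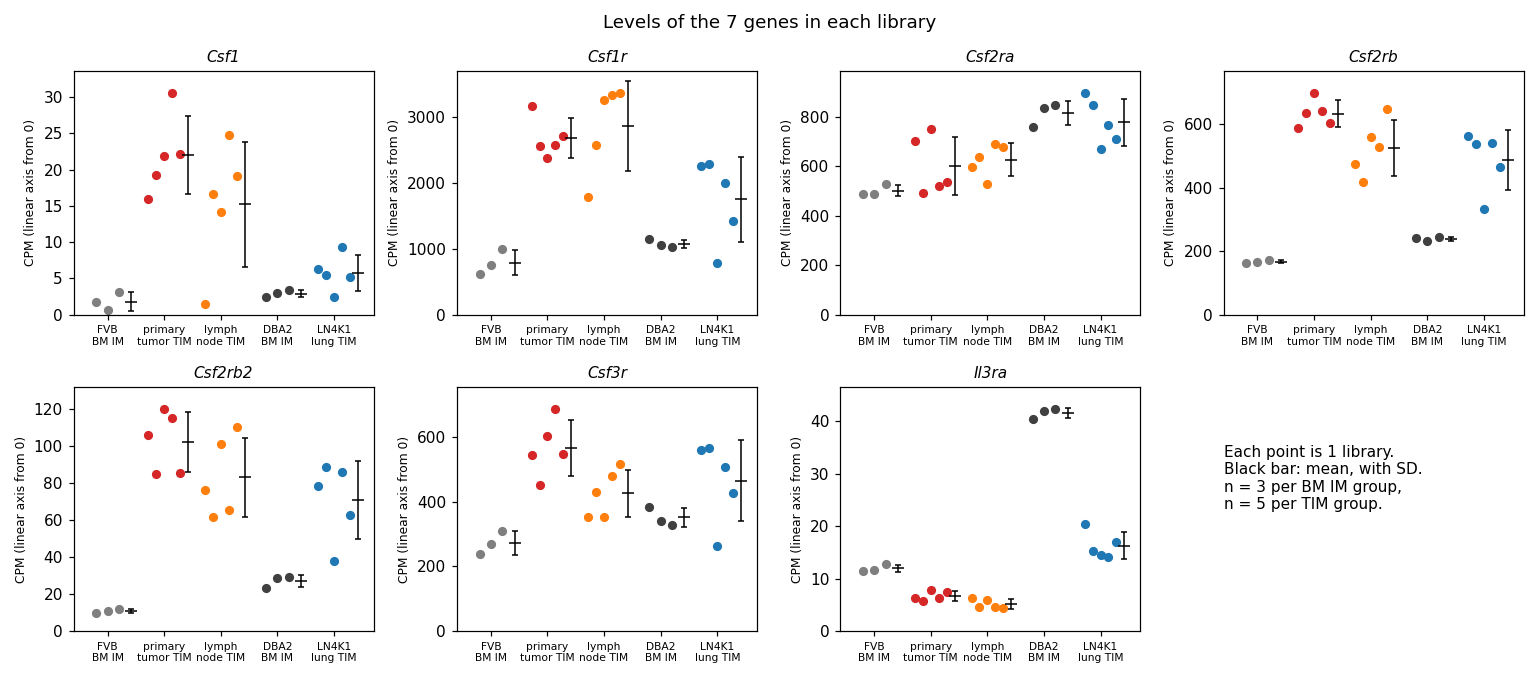
Level of each of the 7 genes in every library (y axis, CPM, linear from 0) by group (x axis); points are libraries in replicate order, and the black bar is the mean with the SD (n = 3 for BM IMs, n = 5 for TIMs). Csf2rb and Csf2rb2 lie higher in every TIM library than in any BM IM library, Il3ra is highest in DBA2 BM IMs at 40.5 to 42.3 CPM, and lymph node replicate 1 stands alone for Csf1 at 1.54 CPM.

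Csf1 encodes the ligand of CSF1R and lies on chromosome 3 (GRCm38, chr3:107741048-107760469, minus strand). Its 3 FVB BM IM libraries held 1.69, 0.611 and 3.15 CPM. The primary tumor TIM libraries held 16.0, 19.3, 21.9, 30.5 and 22.2 CPM, and the lymph node TIM libraries 1.54, 16.6, 14.2, 24.7 and 19.1 CPM. Every primary tumor library lay above every FVB BM IM library, and so did 4 of the 5 lymph node libraries, while lymph node replicate 1 lay inside the BM IM range. Csf1 rose 11.8-fold in primary tumor TIMs (log2 fold change 3.56, SE 0.50, adjusted p = 0.000222) and 8.30-fold in lymph node TIMs (3.05, SE 0.85, adjusted p = 0.0177). Without lymph node replicate 1 the second change was 3.35 (SE 0.53, adjusted p = 0.000772). The spread of the FVB BM IMs also weighed on it. Without FVB replicate 1 or replicate 2 its adjusted p was 0.0684 and 0.0651, and without FVB replicate 3 the log2 fold changes were 4.25 in primary tumor TIMs and 3.73 in lymph node TIMs.

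In DBA2 mice Csf1 stood at 2.38, 2.95 and 3.43 CPM in BM IMs. The LN4K1 lung TIM libraries held 6.37, 5.51, 2.43, 9.31 and 5.23 CPM. Here 4 lung libraries lay above all BM IMs and replicate 3 inside their range. The log2 fold change was 0.91 (SE 0.39) and missed the threshold with all libraries (adjusted p = 0.127), and was 1.1 (SE 0.27, adjusted p = 0.0103) without LN4K1 lung replicate 3.

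Other cells in the sorted samples can transcribe Csf1, fibroblasts among them, so markers of such cells were read beside it. The 4 fibroblast genes (Col1a1, Col1a2, Col3a1, Dcn) summed to at most 0.359 CPM in BM IMs and to 499.5, 973, 348, 1052 and 650.3 CPM in primary tumor TIMs. In lymph node TIMs the sums were 0.836, 87.0, 21.1, 68.8 and 4.17 CPM, and in LN4K1 lung TIMs 5.79, 1.31, 1.8, 17.5 and 42.9 CPM. The library with the lowest lymph node Csf1, replicate 1, also had the lowest fibroblast sum of its group. Lymph node replicate 5 had 19.1 CPM of Csf1 beside a fibroblast sum of 4.17 CPM, and primary tumor replicate 3 had 21.9 CPM beside 348 CPM. The 5 epithelial genes (Epcam, Krt5, Krt14, Krt8, Krt18) summed to 14.3 to 42.9 CPM in primary tumor TIMs, 0.331 to 4.87 CPM in lymph node TIMs and 0.162 to 83.4 CPM in LN4K1 lung TIMs, the lowest of the last being replicate 3. All 4 fibroblast genes were called lower in lymph node than in primary tumor TIMs. For Csf1 the log2 fold change was -0.52 (SE 0.51, adjusted p = 0.577), and -0.22 (SE 0.21, adjusted p = 0.532) without lymph node replicate 1. In FVB BM IMs the 3 endothelial genes summed to at most 6.19 CPM. Their sums were 51.4 to 70 CPM in primary tumor TIMs and 55.5 to 110 CPM in lymph node TIMs. In DBA2 mice BM IMs, at 9.17 to 13.6 CPM, and LN4K1 lung TIMs, at 5.09 to 14.8 CPM, overlapped. Lymph node replicate 1 and LN4K1 lung replicate 3, lowest in Csf1, were also lowest of their groups in this sum. Lymph node replicate 3 was highest of its group, at 110 CPM, beside 14.2 CPM of Csf1. The part of fibroblast, epithelial and endothelial RNA in the values of Csf1 was not tested.

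**Figure D2:**
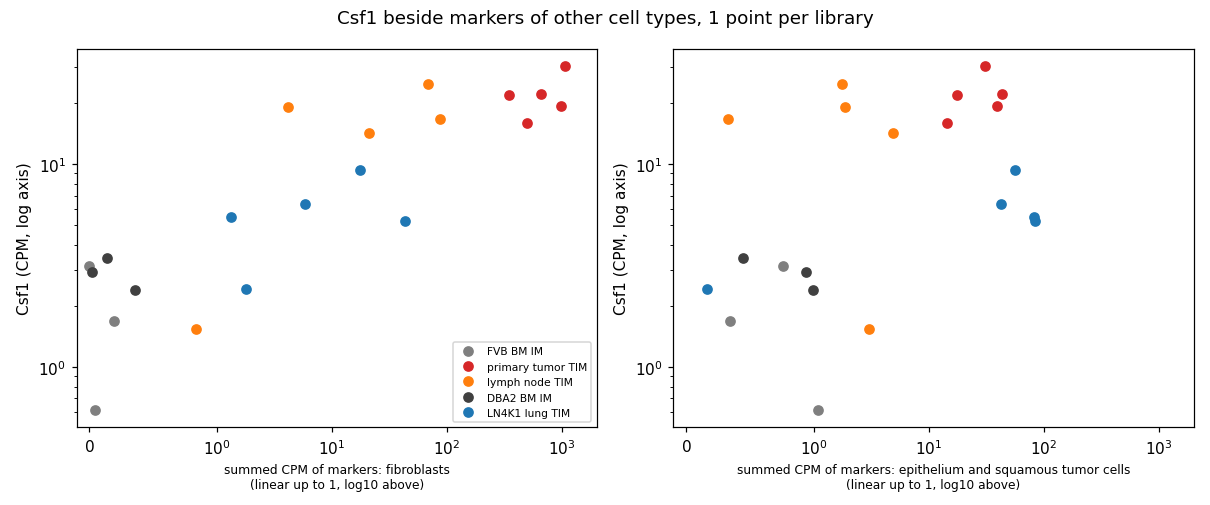
Csf1 (y axis, CPM, log axis) against the summed CPM of fibroblast markers (left) and of epithelial and squamous tumor cell markers (right), with x axes linear up to 1 and log10 above; each point is 1 library, coloured by group. Primary tumor libraries combine 16.0 to 30.5 CPM of Csf1 with fibroblast sums of 348 to 1052 CPM, while lymph node replicate 5 reaches 19.1 CPM at a fibroblast sum of 4.17 CPM.

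The 250 bases before the start of Csf1 are shown because the gene had the largest fold change of the 7 in primary tumor TIMs. The capitals mark the bases that match the NF-kB consensus, here on the opposite strand (RefSeq, GRCm38.p6, minus strand, chr3:107760470-107760719).
Csf1: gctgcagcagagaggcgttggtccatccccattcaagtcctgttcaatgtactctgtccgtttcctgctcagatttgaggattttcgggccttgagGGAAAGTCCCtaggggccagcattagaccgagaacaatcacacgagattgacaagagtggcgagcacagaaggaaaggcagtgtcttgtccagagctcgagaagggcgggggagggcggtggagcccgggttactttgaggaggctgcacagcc
Promoter windows of this length were read for 5 of the 7 genes (Csf1, Csf2ra, Csf2rb2, Csf3r and Il3ra) and searched on both strands. The NF-kB consensus was held by Csf1 and Csf3r, and by 1643 of all 32851 windows, 5%. This consensus was taken after matches had been seen, in place of a narrower NF-kB sequence that Csf1 held and Csf3r did not. TTCNNNGAA, a STAT5 motif held by 7.02% of all windows, was found in Csf2rb2 alone among the 5, and GAGGAAGT, a PU.1 motif held by 2.44%, in none. A match of letters is a description and not a binding site.

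Csf1r encodes the receptor of CSF1 and IL-34, and was the most abundant of the 7 genes per length in all groups but the DBA2 and FVB BM IMs, where Csf2ra was. Its FVB BM IM libraries held 625, 749.7 and 997 CPM. In primary tumor TIM libraries it stood at 3169, 2551, 2380.5, 2580.0 and 2714 CPM and the lymph node TIM libraries 1779, 2572, 3257, 3327 and 3362 CPM, and no TIM library overlapped the BM IMs. Csf1r rose 3.33-fold in primary tumor TIMs (log2 fold change 1.74, SE 0.17, adjusted p = 2.07e-05) and 3.61-fold in lymph node TIMs (1.85, SE 0.25, adjusted p = 0.000285). In DBA2 mice the BM IM libraries held 1145, 1062 and 1026 CPM and the LN4K1 lung TIM libraries 2252, 2278, 785, 2001 and 1419.6 CPM. Lung replicate 3 fell under all DBA2 BM IMs and the other 4 lay above them. The log2 fold change was 0.62 (SE 0.32, adjusted p = 0.186), and 0.81 (SE 0.16, adjusted p = 0.00395) without replicate 3. The summed level of 5 macrophage genes (Adgre1, C1qa, C1qb, C1qc and Mertk) was read beside Csf1r. For FVB BM IMs the sum ran from 172 to 231 CPM, for primary tumor TIMs from 263 to 442 CPM and for lymph node TIMs from 238 to 368 CPM. Neither TIM group overlapped the BM IMs, and 2 of the 5 genes rose in primary tumor TIMs and 1 in lymph node TIMs. Within lymph node TIMs the orders differed, replicate 4 having the lowest sum, 238 CPM, beside 3327 CPM of Csf1r. In LN4K1 lung TIMs 1 of the 5 genes rose and 1 fell. In DBA2 mice the sums were 172 to 214 CPM in BM IMs and 329 to 359 CPM in 4 lung libraries, and lung replicate 3, at 209 CPM, was again the lowest of its group. Their part in the values of Csf1r was not tested.

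The libraries were made without strand, and 873 exonic bases of Csf1r lie opposite exons of Hmgxb3, so reads there cannot be assigned by strand. Hmgxb3 itself stood at 6.52 to 52.9 CPM across the libraries, far below Csf1r, and rose in primary tumor TIMs too (log2 fold change 1.53, SE 0.29, adjusted p = 0.00125). The genes whose log2 level followed Csf1r most closely over the 21 libraries were Itgam, which encodes CD11b, with a root mean square difference of 0.18, then Stat3 and Emilin2, both with 0.20. The spread of Csf1r around its own mean was 0.77 on the same scale.

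Csf2ra encodes the alpha chain of the GM-CSF receptor (chr19:61223957-61228429, minus strand) and was the steadiest of the 7 genes. The FVB BM IM libraries held 488, 489 and 527 CPM. Libraries of primary tumor TIMs held 704, 493, 752, 519 and 537 CPM and the lymph node TIM libraries 598, 638, 527, 692 and 678 CPM. Primary tumor TIMs overlapped the BM IMs in 2 libraries, while the lymph node libraries all lay above them, the lowest by a margin lost in rounding. The log2 fold changes were 0.24 (SE 0.15, adjusted p = 0.201) and 0.32 (SE 0.12, adjusted p = 0.0522). The second lies at the threshold, since its adjusted p was 0.0498 with DESeq2's size factors and 0.0176 in DESeq2. Without lymph node replicate 1 Csf2ra was called (0.34, SE 0.12, adjusted p = 0.0488). In DBA2 mice the BM IM libraries held 759.8, 838 and 848 CPM and the LN4K1 lung TIM libraries 897, 847, 669, 766 and 712 CPM, which overlapped (log2 fold change -0.14, SE 0.13, adjusted p = 0.467). Its spread over the 21 libraries was 0.29 on the log2 scale, and the genes nearest to it were Zeb2, a transcription factor of myeloid cells, at 0.16, and Cdk9 and Rbm22, both at 0.19.

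Csf2rb and Csf2rb2 encode the beta chains and lie side by side on chromosome 15 in opposite directions, Csf2rb2 at chr15:78282507-78305721 on the minus strand and Csf2rb at chr15:78325752-78353847 on the plus strand. They are close paralogs. Their coding sequences of 2688 and 2634 bases were identical at 2503 of 2628 aligned positions, 95.2%, and 26.0% of the 50-base words of Csf2rb also occurred in Csf2rb2. Reads from such stretches could be split or dropped by the counting, so the level of each is uncertain by an amount the counts do not show. In stretches of 120 bases within an exon the 2 genes differed at 0 to 16 bases, with a median of 3. A stretch at the median (exon 7 of the Csf2rb transcript and exon 6 of the Csf2rb2 transcript) and the stretch that differs most (exons 5 and 4) are printed from GRCm38 on the strand of each gene, so that the letters that separate the reads can be seen, with capitals at the bases that differ.
Csf2rb chr15:78340688-78340807: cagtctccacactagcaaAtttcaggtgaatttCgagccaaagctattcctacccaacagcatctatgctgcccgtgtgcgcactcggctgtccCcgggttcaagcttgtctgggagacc
Csf2rb2 chr15:78292502-78292621: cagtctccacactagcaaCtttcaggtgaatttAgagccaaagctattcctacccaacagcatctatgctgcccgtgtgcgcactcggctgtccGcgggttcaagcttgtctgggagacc
Csf2rb chr15:78338867-78338986: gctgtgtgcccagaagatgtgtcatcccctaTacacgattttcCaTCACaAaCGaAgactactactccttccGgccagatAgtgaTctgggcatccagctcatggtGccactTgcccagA
Csf2rb2 chr15:78294345-78294464: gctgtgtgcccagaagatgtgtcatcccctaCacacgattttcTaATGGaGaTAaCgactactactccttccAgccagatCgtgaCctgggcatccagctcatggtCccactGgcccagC

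Csf2rb, the beta chain shared by GM-CSF, IL-3 and IL-5, had the smallest standard error of the 7 genes in primary tumor TIMs. In FVB BM IM libraries it stood at 163, 166 and 172 CPM. The primary tumor TIM libraries held 587, 633, 698, 642 and 603 CPM and the lymph node TIM libraries 473, 417, 559, 528 and 648 CPM. The lowest of these TIM libraries, at 417 CPM, lay far above the highest BM IM library, at 172 CPM. Csf2rb rose 3.74-fold in primary tumor TIMs (log2 fold change 1.90, SE 0.09, adjusted p = 3.84e-07) and 3.15-fold in lymph node TIMs (1.65, SE 0.15, adjusted p = 2.64e-05). In DBA2 mice it went from 241, 231 and 244 CPM in BM IMs to 562, 537, 333, 539 and 466 CPM in LN4K1 lung TIMs, with no overlap, a rise of 1.94-fold (0.96, SE 0.18, adjusted p = 0.00385). Lung replicate 3 was again the lowest of its group, and without it the log2 fold change was 1.07 (SE 0.09, adjusted p = 2.20e-05).

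Csf2rb2, the beta chain of the IL-3 receptor, changed more than Csf2rb. The FVB BM IM libraries held 9.76, 10.8 and 11.7 CPM. In primary tumor TIM libraries it stood at 106, 84.8, 119.8, 115 and 85.4 CPM and the lymph node TIM libraries 76.4, 61.8, 101, 65.4 and 110.2 CPM. Again no TIM library came near the BM IMs. Csf2rb2 rose 9.37-fold in primary tumor TIMs (log2 fold change 3.23, SE 0.17, adjusted p = 5.11e-07) and 7.72-fold in lymph node TIMs (2.95, SE 0.24, adjusted p = 1.31e-05). In DBA2 mice it went from 23.4, 28.6 and 29.3 CPM to 78.1, 88.7, 37.7, 85.9 and 62.6 CPM in LN4K1 lung TIMs, without overlap, a rise of 2.47-fold (1.31, SE 0.27, adjusted p = 0.00714). Without lung replicate 3 the log2 fold change was 1.47 (SE 0.15, adjusted p = 6.85e-05).

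The promoter of Csf2rb2 is printed because it alone among the 5 windows held the STAT5 motif, which is in capitals (RefSeq, GRCm38.p6, minus strand, chr15:78305722-78305971).
Csf2rb2: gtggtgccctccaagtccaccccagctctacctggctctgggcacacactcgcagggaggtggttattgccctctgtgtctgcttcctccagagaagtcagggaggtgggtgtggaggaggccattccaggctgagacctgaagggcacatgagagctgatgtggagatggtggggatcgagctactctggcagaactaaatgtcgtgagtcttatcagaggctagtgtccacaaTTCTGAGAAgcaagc

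The balance of the chains differed between the groups. Csf2rb2 made up 6.04% ± 0.356 (SD, n = 3) of the counts of both beta chains in FVB BM IMs and 10.2% ± 1.16 (SD, n = 3) in DBA2 BM IMs. The share was 13.9% ± 1.64 (SD, n = 5) in primary tumor TIMs, 13.5% ± 1.64 (SD, n = 5) in lymph node TIMs and 12.4% ± 1.60 (SD, n = 5) in LN4K1 lung TIMs. The LN2E1 TIM libraries, at 11% to 15.3%, did not overlap the FVB BM IM libraries, at 5.65% to 6.35%, while the LN4K1 lung libraries, at 10.2% to 14.2%, overlapped the DBA2 BM IM libraries, at 8.87% to 11%. The CPM of both beta chains together stood at 0.354 of that of Csf2ra in FVB BM IMs and 0.326 in DBA2 BM IMs. In TIMs the ratio was 1.25 in primary tumors, 0.980 in lymph nodes and 0.713 in LN4K1 lung metastases, and the lowest TIM library, at 0.554, lay above the highest BM IM library, at 0.361. This ratio compares counts that are not scaled to length, so its change between groups can be read but not its size. The genes nearest to Csf2rb over the 21 libraries were Relb, an NF-kB subunit (0.17), Tmem106a (0.19) and Dse (0.20), against a spread of 0.70. Those nearest to Csf2rb2 were Jak3, a kinase of other cytokine receptors (0.24), Grina (0.28) and 2310022A10Rik (0.29), against a spread of 1.14.

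**Figure D3:**
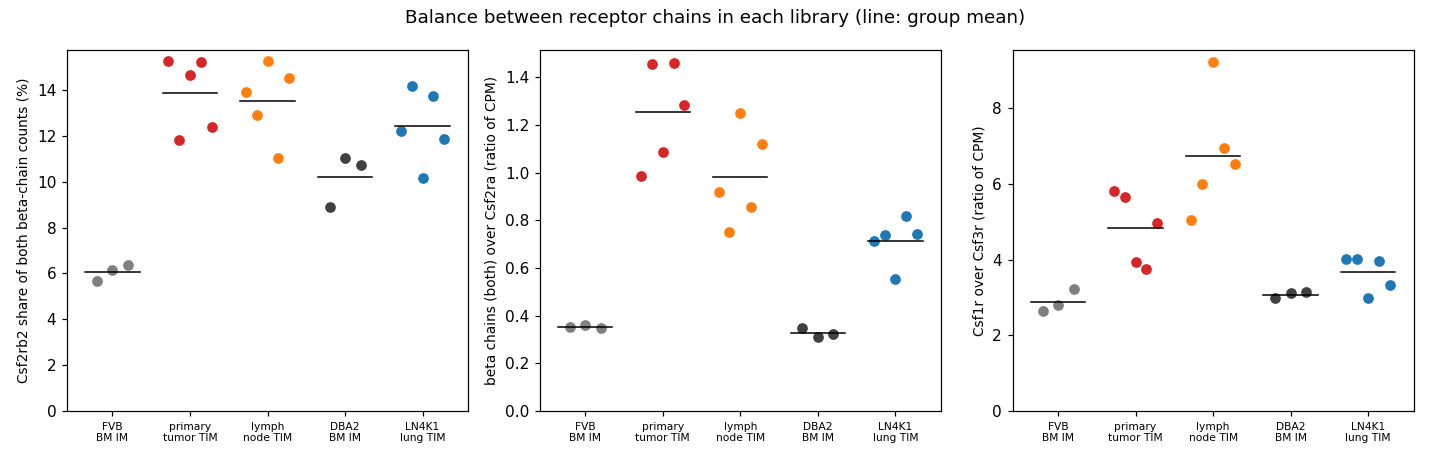
Share of Csf2rb2 in the counts of both beta chains (left, percent), both beta chains over Csf2ra (middle, ratio of CPM) and Csf1r over Csf3r (right, ratio of CPM), 1 point per library with a line at the group mean. The middle ratio is 0.310 to 0.361 in BM IM libraries and 0.554 to 1.46 in TIM libraries.

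Csf3r encodes the G-CSF receptor (chr4:126024550-126044440, plus strand). The FVB BM IM libraries held 237, 268 and 311 CPM. Libraries of primary tumor TIMs held 545, 451, 604, 686 and 547 CPM and the lymph node TIM libraries 352, 429.6, 353, 478 and 515 CPM. Every TIM library of this model lay above every FVB BM IM library, the lymph node group by a narrower margin. Csf3r rose 2.05-fold in primary tumor TIMs (log2 fold change 1.04, SE 0.15, adjusted p = 0.000255) and 1.56-fold in lymph node TIMs (0.65, SE 0.16, adjusted p = 0.0111). The lymph node call was lost without FVB replicate 1 (adjusted p = 0.0613) and without FVB replicate 2 (adjusted p = 0.0522). In DBA2 mice the BM IM libraries held 384, 341 and 327 CPM and the LN4K1 lung TIM libraries 561, 566, 263, 507 and 428 CPM. Lung replicate 3 lay below all BM IMs and the other 4 above them (log2 fold change 0.33, SE 0.24, adjusted p = 0.351), and without it the change was 0.48 (SE 0.12, adjusted p = 0.0120).

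Since Csf3r is a neutrophil gene as well, 9 neutrophil genes (Cxcr2, Mmp8, Mmp9, Ltf, Camp, Ngp, Retnlg, Cd177, Lcn2) were read beside it. Their sum was 3247 to 3840.3 CPM in FVB BM IMs. It was 992 to 1464 CPM in primary tumor TIMs and 453 to 1051 CPM in lymph node TIMs. In FVB mice this sum over all 9 genes was lower where Csf3r was higher. In DBA2 mice it was 1598 to 2238 CPM in BM IMs and 1571 to 2518 CPM in LN4K1 lung TIMs, with the median higher in the lung (2330 against 1725 CPM), and lung replicate 3 was lowest of its group both in this sum and in Csf3r. Of the 9 genes, 2 rose and 5 fell in primary tumor TIMs, and 1 rose and 6 fell in lymph node TIMs. In LN4K1 lung TIMs 1 rose and 4 fell. Primary tumor replicate 4 had the highest Csf3r of all libraries. It also had the highest Cxcr2 (73.8 CPM against 13.2 to 19.2 CPM in the other primary tumor libraries). Its Mmp9 was highest too (68.5 CPM against 5.37 to 9.99 CPM), and both are neutrophil genes. Over all 9 genes its sum, 1370 CPM, was below the 1464 CPM of primary tumor replicate 3. The part of neutrophil RNA in the values of Csf3r was not tested. Leaving out single primary tumor or FVB libraries moved the log2 fold change of Csf3r between 0.96 and 1.16, and none of the 8 fits lost the call. Csf1r stood at 2.88 times the CPM of Csf3r in FVB BM IMs, 3.08 in DBA2 BM IMs, 4.83 in primary tumor TIMs, 6.75 in lymph node TIMs and 3.66 in LN4K1 lung TIMs. The genes nearest to Csf3r were Stat6, which relays IL-4 (0.17), Med15 and Arhgap30 (both 0.18), against a spread of 0.42.

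Il3ra encodes the alpha chain of the IL-3 receptor (chr14:14346275-14356011, plus strand) and was the member that fell. The FVB BM IM libraries held 11.5, 11.6 and 12.7 CPM. The primary tumor TIM libraries held 6.28, 5.69, 7.85, 6.29 and 7.46 CPM and the lymph node TIM libraries 6.27, 4.6, 5.99, 4.64 and 4.38 CPM. No TIM library reached the BM IMs. Il3ra fell by 0.85 on the log2 scale in primary tumor TIMs (SE 0.16, adjusted p = 0.00119) and by 1.21 in lymph node TIMs (SE 0.27, adjusted p = 0.00587). In DBA2 mice it stood at 40.5, 41.9 and 42.3 CPM in BM IMs and at 20.4, 15.2, 14.6, 14.1 and 17.0 CPM in LN4K1 lung TIMs, a fall by 1.43 (SE 0.15, adjusted p = 0.000108), again with no overlap. The alpha chain thus fell in the 3 comparisons in which the IL-3 beta chain rose. Eosinophil and neutrophil precursor markers, high in BM IMs, moved in the same direction as Il3ra, and those of plasmacytoid dendritic cells in the opposite one. The 5 basophil and mast cell genes, which mark cells known for this receptor, summed to 89.6 to 106 CPM in FVB BM IMs and 9.78 to 17.0 CPM in DBA2 BM IMs, so they were lower in the strain with more Il3ra. Their sums were 8.91 to 29.9 CPM in primary tumor TIMs and 0.176 to 5.55 CPM in LN4K1 lung TIMs, below the BM IMs of the same strain, as was Il3ra. In lymph node TIMs, where Il3ra fell too, the sums ran from 4.11 to 223 CPM. They overlapped the FVB BM IMs, and none of the 5 genes was called. Lymph node replicate 1, with a basophil sum of 223 CPM, had 6.27 CPM of Il3ra, the highest of its group. A noncoding gene, Gm48860, overlaps 46 exonic bases of Il3ra on the opposite strand. The nearest genes were Acap1 (0.41), 9030025P20Rik (0.42) and Rab3d (0.45), against a spread of 1.02.

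**Figure D4:**
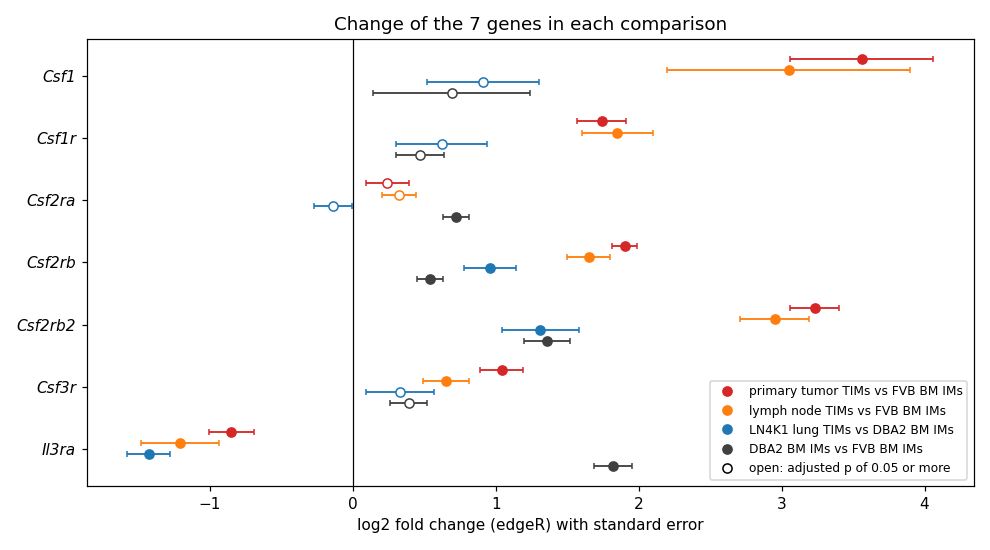
Log2 fold change of each gene (x axis, edgeR, with standard error) in the 3 comparisons of TIMs with BM IMs of the same strain and in DBA2 against FVB BM IMs; filled points have an adjusted p under 0.05. The primary tumor changes run from -0.85 for Il3ra to 3.56 for Csf1, and Csf2ra is open in all 3 tumor comparisons.

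The strain comparison asked how far the 2 control groups differed on their own. Of the 7 genes, 4 were called and all 4 were higher in DBA2 than in FVB BM IMs, where 21.1% of 12905 genes were called and 11.5% were called higher. At the study's thresholds 1 passed, Il3ra, and 0.403% of all genes. Il3ra showed the largest difference, 3.53-fold (log2 fold change 1.82, SE 0.13, adjusted p = 9.43e-05), followed by Csf2rb2 at 2.56-fold (1.36, SE 0.16, adjusted p = 0.00111). Csf2ra was 1.65-fold higher (0.72, SE 0.09, adjusted p = 0.00175) and Csf2rb 1.45-fold higher (0.54, SE 0.09, adjusted p = 0.00459). All 4 are chains of the GM-CSF and IL-3 receptors. Csf1r (0.47, adjusted p = 0.0847), Csf3r (0.39, adjusted p = 0.0618) and Csf1 (0.69, adjusted p = 0.393) were not called, although Csf1r and Csf3r passed in DESeq2 (adjusted p = 0.0434 and 0.0407). The DBA2 libraries lay above all FVB libraries for 6 of the 7 genes, Csf1 being the exception, where 20.5% of all genes were free of overlap in this direction and 42% in either. Reads of both strains were mapped to the same C57BL/6 reference, and the effect of strain variants on the counts was not tested.

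The change in primary tumor TIMs was then compared with the change in LN4K1 lung TIMs, each against its own BM IMs, as an interaction. It was called for 5 of the 7 genes, all with positive differences, where 26.5% of 15182 genes were called and 13.2% had a positive difference. At the study's thresholds 0 of the 7 and 0.369% of all genes passed. The difference was 2.67 for Csf1 (SE 0.62, adjusted p = 0.00606), 1.94 for Csf2rb2 (SE 0.32, adjusted p = 0.000925) and 0.96 for Csf2rb (SE 0.20, adjusted p = 0.00318). These 3 calls held in all 16 fits that left out 1 library each. Csf1r differed by 1.13 (SE 0.38, adjusted p = 0.0379) and Il3ra by 0.60 (SE 0.21, adjusted p = 0.0434). For Il3ra this means a smaller fall in primary tumor TIMs than in LN4K1 lung TIMs. The last 2 calls lay close to the threshold and were lost in 10 and 11 of the 16 fits. Csf3r (0.72, SE 0.30, adjusted p = 0.0819) and Csf2ra (0.40, SE 0.21, adjusted p = 0.166) missed it. Without LN4K1 lung replicate 3 Csf3r was called as well (0.57, SE 0.20, adjusted p = 0.042), and 1 of the 7 genes passed the study's thresholds. For Csf2rb2 the 2 control groups already differed, and the TIM groups, at 84.8 to 119.8 CPM in primary tumors and 37.7 to 88.7 CPM in LN4K1 lung metastases, overlapped. Line, strain, route and site cannot be told apart in this comparison.

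Lymph node and primary tumor TIMs come from the same model, and their comparison called none of the 7 genes in edgeR, where 11.7% of 13488 genes were called, and at the study's thresholds 0 of the 7 and 0.0297% of all genes passed. The libraries of the 2 groups overlapped for all 7, while 14.4% of all genes had none. At an unadjusted p under 0.05 there were 2, Csf3r and Csf2rb. Csf3r came closest, lower in lymph nodes by a log2 fold change of -0.40 (SE 0.14, adjusted p = 0.0861), and it was the 1 gene that DESeq2 called (adjusted p = 0.0165). The value for Csf2rb was -0.26 (SE 0.11, adjusted p = 0.175), and for Csf1r 0.10 (SE 0.16, adjusted p = 0.743).

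The 5 groups were ordered by mean CPM for each gene. Csf2rb and Csf2rb2 shared the order primary tumor, lymph node, LN4K1 lung, DBA2 BM and FVB BM, with overlap between neighbouring TIM groups and gaps between LN4K1 lung and DBA2 BM and between DBA2 and FVB BM. For Csf1r lymph node TIMs came first (2859 CPM) and overlapped primary tumor TIMs (2679 CPM), which were apart from LN4K1 lung TIMs (1747 CPM). Csf1 had the same order as the beta chains, but every pair of neighbours overlapped. For Il3ra the order was DBA2 BM (41.5 CPM), LN4K1 lung (16.2 CPM), FVB BM (11.9 CPM), primary tumor (6.72 CPM) and lymph node (5.18 CPM), and only the last pair of neighbours overlapped. For Csf2ra the DBA2 mice came first and all neighbours overlapped.

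Levels of different genes were compared per kilobase of exon. In primary tumor TIMs Csf1r stood at 464 CPM per kb, Csf2ra at 209, Csf3r at 157, Csf2rb at 86.9, Csf2rb2 at 21.6, Csf1 at 4.16 and Il3ra at 2.26. In FVB BM IMs Csf2ra came first at 175 CPM per kb, then Csf1r at 137, Csf3r at 75.3, Csf2rb at 22.9, Il3ra at 4.03, Csf2rb2 at 2.27 and Csf1 at 0.345. In DBA2 BM IMs Csf2ra stood at 284 and Csf1r at 187 CPM per kb. The ligand gene was therefore far below its receptor gene in every group. Il3ra stood above Csf2rb2 per length in both BM IM groups and below it in all 3 TIM groups.

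Other genes of these pathways were read from 4 lists. Of the other ligands, Csf2 (GM-CSF) held at most 35 counts in any library, and Il3 held 0 in all 21. Csf3 (G-CSF) was listed at 0 in all BM IMs and at 0.108, 1.75, 0.884, 1.35 and 0.453 CPM in primary tumor TIMs, and rose there (adjusted p = 0.00161). Il34, the second ligand of CSF1R, had at most 1 count in BM IMs and stood at 4.24, 5.32, 3.95, 3.95 and 4.7 CPM in primary tumor TIMs and at 6.15, 1.5, 3.78, 0.936 and 0.416 CPM in lymph node TIMs. It rose in both (adjusted p = 1.33e-06 and 0.00208), while in LN4K1 lung TIMs its values of 0.0580, 1.36, 0, 0.259 and 2.12 CPM missed the threshold (adjusted p = 0.0517).

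Among 5 other receptors of the same families, 3 rose in primary tumor TIMs, 2 rose and 1 fell in lymph node TIMs and 1 rose in LN4K1 lung TIMs. Of all genes, 33.3%, 20.2% and 13.9% rose in these comparisons, and 17.2% fell in lymph node TIMs. Flt3, a receptor tyrosine kinase of dendritic cell progenitors related to CSF1R, rose in all 3. It stood at 7.01 to 9.76 CPM in BM IMs of FVB mice, 34.5 to 42.4 CPM in primary tumor TIMs and 24.2 to 70.2 CPM in lymph node TIMs, and at 12.7 to 16.3 CPM in BM IMs of DBA2 mice and 30.9 to 55.5 CPM in LN4K1 lung TIMs. The order of the lymph node libraries for Flt3 and for the summed genes of plasmacytoid dendritic cells was the same. Replicate 3 was highest (1120 CPM) and replicate 5 lowest (83.9 CPM) in that sum. In primary tumor and LN4K1 lung TIMs the orders differed, although replicate 3 was lowest for both in each group. The sums in LN4K1 lung TIMs were 5.77 to 86.9 CPM. The part of these cells in the values of Flt3 was not tested. Pdgfra, a fibroblast receptor, stood at 13.9 to 48.8 CPM in primary tumor TIMs and was listed at 0 in FVB BM IMs, beside the fibroblast sums given above. Il5ra, the alpha chain of the IL-5 receptor, held 14 to 154 counts in FVB BM IMs and 0 in all 5 lymph node libraries, and fell there (adjusted p = 0.0105). It is an eosinophil gene, and the 5 eosinophil genes summed to at most 1.03 CPM in the lymph node libraries. Within FVB BM IMs the orders differed. Replicate 1 had 14 counts of Il5ra at an eosinophil sum of 942 CPM, and replicate 2 had 68 counts at 539 CPM. The part of eosinophil RNA in the values of Il5ra was not tested.

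The list of JAK2, STAT5 and known STAT5 target genes had 9 members. All 9 rose in primary tumor TIMs, 6 rose in lymph node TIMs and 4 in LN4K1 lung TIMs, where 33.3%, 20.2% and 13.9% of all genes rose. None of the 9 fell in these comparisons. These counts take no account of whether STAT5 raises or lowers a target. The median log2 fold changes were 1.25, 1.42 and 1.06, and those of all genes tested 0.08, -0.04 and 0.03. Bcl6 rose by 2.25 in primary tumor TIMs (adjusted p = 2.24e-05) and 1.77 in lymph node TIMs (adjusted p = 0.00128). In LN4K1 lung TIMs Stat5a (-0.40), Stat5b (-0.47) and Bcl6 (-0.11) had negative values and were not called. Cish, a feedback inhibitor of STAT5 signaling, was at 0.0983 to 0.581 CPM in FVB BM IMs and 0.319 to 1.56 CPM in DBA2 BM IMs. It stood at 7.52, 9.60, 20.6, 10.5 and 14.6 CPM in primary tumor TIMs (log2 fold change 5.16, SE 0.60, adjusted p = 7.08e-05) and at 6.31, 7.49, 14, 9.18 and 8.68 CPM in lymph node TIMs (4.71, SE 0.66, adjusted p = 0.000389). In LN4K1 lung TIMs it stood at 35.6, 36.9, 9.64, 39.6 and 34.2 CPM (4.76, SE 0.67, adjusted p = 0.000749), so that TIMs and BM IMs did not overlap in either strain.

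Pim1, a kinase gene induced by STAT5, rose by a log2 fold change of 1.92 in primary tumor TIMs (SE 0.14, adjusted p = 3.03e-06), 2.05 in lymph node TIMs (SE 0.23, adjusted p = 8.18e-05) and 1.83 in LN4K1 lung TIMs (SE 0.28, adjusted p = 0.00124). It was also higher in DBA2 than in FVB BM IMs, at 307 to 672 CPM against 29.6 to 41.6 CPM (3.88, SE 0.30, adjusted p = 0.000146). Jak2, the kinase bound to the beta chain, rose in the 3 comparisons by 1.25 (SE 0.19, adjusted p = 0.000316), 1.42 (SE 0.26, adjusted p = 0.00191) and 1.06 (SE 0.27, adjusted p = 0.0194). Osm, the cytokine oncostatin M, rose in primary tumor TIMs (1.17, SE 0.15, adjusted p = 0.000127) and LN4K1 lung TIMs (1.13, SE 0.16, adjusted p = 0.000686), and was lower in lymph node than in primary tumor TIMs (-1.30, SE 0.19, adjusted p = 0.00211). Socs2 rose in primary tumor TIMs, with 0.107 to 0.683 CPM in BM IMs and 2.78 to 4.17 CPM in TIMs (3.24, SE 0.54, adjusted p = 0.000651).

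**Figure D5:**
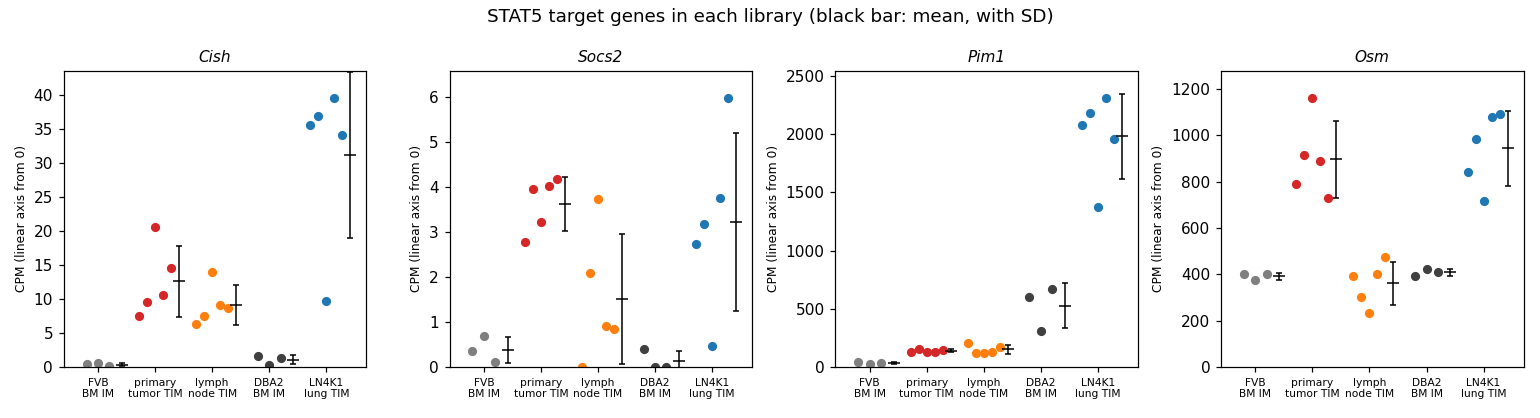
Cish, Socs2, Pim1 and Osm in every library (y axis, CPM, linear from 0) by group, with the mean and SD as a black bar. Cish lies at 6.31 CPM or more in every TIM library and at 1.56 CPM or less in every BM IM library, and Pim1 is higher in both DBA2 groups than in the 3 FVB groups.

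Of 12 genes that relay or restrain CSF1R signaling, 8 rose in primary tumor TIMs, 8 in lymph node TIMs and 2 in LN4K1 lung TIMs, and none fell. The shares of all genes that rose were 33.3%, 20.2% and 13.9%. Dok2, an adaptor that restrains signaling, changed most, with 17.2, 18.3 and 19.7 CPM in the FVB controls, 203 to 339 CPM in primary tumor TIMs (log2 fold change 3.75, SE 0.19, adjusted p = 4.82e-07) and 144 to 406 CPM in lymph node TIMs (4.08, SE 0.33, adjusted p = 1.25e-05). It rose in LN4K1 lung TIMs as well (2.16, SE 0.22, adjusted p = 0.00012), and less than in primary tumors by the interaction (1.61, SE 0.28, adjusted p = 0.00116). Adam17, the protease that sheds CSF1R from the cell surface, rose in primary tumor TIMs (1.51, SE 0.11, adjusted p = 3.50e-06) and lymph node TIMs (1.67, SE 0.14, adjusted p = 1.65e-05), with a value of 0.29 (SE 0.20, adjusted p = 0.349) in LN4K1 lung TIMs. Ptpn6, the phosphatase SHP-1, was not called in any of these comparisons, with log2 fold changes of 0.04, -0.09 and -0.09. Over the 4 lists together, 75.9% of 29 genes tested were called in primary tumor TIMs, 69.2% of 26 in lymph node TIMs and 26.9% of 26 in LN4K1 lung TIMs, beside the 61.9%, 37.4% and 24.9% of all genes.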

How the data were processed

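The deposited values are the authors' raw read counts per gene symbol in 21 libraries. The authors made libraries from amplified cDNA without strand, trimmed adapters with BBDuk, aligned to mm10 with BBMap, and counted with featureCounts 1.5.2 (SAMtools 1.8 is also named in the submitters' processing notes). The counting settings are not given in the sources used here. Groups came from the sample labels. No column lacked a sample.

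In edgeR 4.0.16 (R 4.3.3), a comparison used only the libraries of its groups, with TMM factors, the default filter (minimum count 10, minimum total 15) and robust quasi-likelihood fits. The p-values were adjusted by Benjamini and Hochberg over all genes tested. The interaction used 4 groups. Standard errors are absolute log2 fold changes divided by the square root of F, which is approximate. Scripts were tested on simulated data. Alternatives were DESeq2 1.42.0 with and without shrinkage, its size factors in edgeR, other count filters, a fit of all 5 groups, a replicate block, and each library left out in turn. Coordinates and exon lengths are from GENCODE vM21 and promoters from RefSeq. The beta chain coding sequences were aligned with mafft 7.526. Nearest genes are the 3 genes, of 8016 with a mean log2 CPM above 3 (prior count 2), with the smallest root mean square difference of centred log2 CPM over 21 libraries.

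All 7 genes are named in every comparison, and other pathway genes come from 4 lists. The genes, lists and rules were chosen with earlier results of these data known. Intervals and floors of 3 counts cover counting error only, and at these depths the spread between libraries, not counting, sets the precision. The NF-kB motif searched in promoters was widened from a single sequence to its consensus after the first matches had been seen.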

Additional observations from a re-analysis of the deposited data

Results flagged for a closer look

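Csf1 in lymph node TIM replicate 1, at 1.54 CPM, lay far from the other 4 libraries of its group (14.2 to 24.7 CPM): its gap to the nearest was 0.80 of the whole range, above the critical value of 0.71 of Dixon's test. This test was made for 7 genes in 3 groups of 5 libraries, and chance flags about 1 in 20. The same library had the highest Mcpt8 of its group (137 CPM) and the lowest fibroblast sum (0.836 CPM), and the part of these in its Csf1 level was not tested.

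The change against BM IMs differed between LN2E1 primary tumor TIMs and LN4K1 lung TIMs, by edgeR's interaction test, for Csf1 (2.67, adjusted p = 0.00606), Csf2rb2 (1.94, adjusted p = 0.000925), Csf1r (1.13, adjusted p = 0.0379), Csf2rb (0.96, adjusted p = 0.00318) and Il3ra (0.60, adjusted p = 0.0434), each on the log2 scale. Behind each value were 5 TIM and 3 BM IM libraries on each side of the comparison.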

How the results depend on the processing

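The direction of a log2 fold change turned in 1 of 679 values recomputed for the 7 genes, that of Csf2ra in lymph node against primary tumor TIMs, which ran from -0.0010, without primary tumor replicate 2, to 0.17 with single libraries left out and was called in none of these fits. Of the 679 values, 624 kept direction and side of the threshold, 34 lost the call and 20 gained it. With single libraries left out, the number of the 7 genes called stayed at 6 in primary tumor TIMs, ranged from 4 to 7 in lymph node TIMs, from 3 to 6 in LN4K1 lung TIMs, from 4 to 6 between the strains and from 3 to 6 in the interaction, and stayed at 0 between lymph node and primary tumor TIMs. At the study's thresholds the ranges were 2 to 4, 0 to 3, 0 to 3, 0 to 1, 0 to 1 and 0 to 0 in the same order. The highest counts for LN4K1 lung TIMs, 6 and 3, came without LN4K1 lung replicate 3. In lymph node TIMs the 4 calls came without FVB replicate 1 or 2, and the count at the study's thresholds was 0 with any single FVB BM IM replicate left out and 1 without lymph node replicate 3 or 4. The interaction gave 3 calls without FVB replicate 1 or 2, any DBA2 BM IM replicate, LN4K1 lung replicate 5 or primary tumor replicate 4 or 5.

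DESeq2, with and without shrinkage, passed more genes at the study's thresholds, 5 in primary tumor TIMs, 5 in lymph node TIMs, 2 in LN4K1 lung TIMs and 2 between the strains, and 2 in the interaction without shrinkage. A fit of all 5 groups passed 4 in lymph node TIMs and 2 in LN4K1 lung TIMs, and the latter had 1 without a filter and 1 with at least 10 counts in every library. Csf3r was the 1 gene called between lymph node and primary tumor TIMs in DESeq2 with and without shrinkage and with 10 counts in every library. The cause of these differences was not tested.

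The labels do not say whether replicate numbers pair the samples. Correlations of the deviations of same-numbered libraries ran from -0.297 to 0.297, and in no comparison were all above 0.1. In lymph node TIMs against FVB BM IMs all 3 numbers correlated best with their own. With so few libraries, these values cannot decide whether same-numbered primary tumor and lymph node TIMs came from the same mouse. With a replicate block, 3 of the 7 genes were called in lymph node TIMs, 1 in LN4K1 lung TIMs and 3 in the interaction, and 0 passed the study's thresholds in primary tumor TIMs, in lymph node TIMs and between the strains. The calls lost in LN4K1 lung TIMs were Csf2rb (0.90, SE 0.22, adjusted p = 0.074) and Csf2rb2 (1.18, SE 0.33, adjusted p = 0.1). In lymph node TIMs they were Csf1 (adjusted p = 0.198), Csf3r (adjusted p = 0.0534) and Il3ra (adjusted p = 0.0826). The interaction lost Csf1r (adjusted p = 0.0746) and Il3ra (adjusted p = 0.0753). All these changes kept their direction. The fit with the block has fewer residual degrees of freedom. Depth limits Csf2, Csf3, Il34 and Il5ra, which lay near the floor in part of the libraries, and none of the 7 genes.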
